A study of Drosophila melanogaster with 2 samples.

Results

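The circadian clock genes described here are per, tim, Clk, cyc, vri, Pdp1, cwo, cry, dco and sgg, which are 10 of the 13968 protein-coding genes annotated on the chromosome arms. They were chosen by name for their roles in the fly clock, with earlier results of these peak lists known, and every peak with its summit between 2000 bp upstream of a gene and its end was assigned to it. Of the 9295 peaks in the conservative list, which the authors made from both replicates together, 48 fell in these windows. The material was whole Drosophila melanogaster prepupae with an age of 2 days in the labels and sex not collected. They carried a CG15336-eGFP insertion, in which CG15336, a gene known by its annotation number, is fused to enhanced green fluorescent protein, and both libraries came from that strain. Chromatin was sonicated to between 200 and 800 bp and precipitated with an antibody against GFP. Each peak is read as a place where DNA bound to the fusion protein was recovered. There was 1 group with 2 biological replicates, which gave 6678 and 8219 peaks past the authors' reproducibility threshold. No control library was analysed here, and peak lists do not give the read depth. In whole animals a site occupied in a few cells and a site occupied weakly in many cannot be told apart.

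The fly clock is a transcriptional feedback loop. The proteins CLK and CYC bind E-boxes, DNA elements with the core CACGTG, and switch on per, tim, vri, Pdp1 and cwo, after which PER and TIM enter the nucleus and inhibit CLK and CYC. In a second loop VRI represses and PDP1 activates Clk, while CWO competes at E-boxes. Light resets the loop through the blue light receptor CRY, which triggers the loss of TIM, and the kinases encoded by dco and sgg phosphorylate PER and TIM and so set the pace.

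Peaks were called at 9 of the 10 clock genes, and the genes with the highest signals were sgg, vri, Pdp1, cry and dco, in that order. Of the highest peaks of these genes, those at sgg, vri, Pdp1 and dco lay in introns. That at sgg also lay just upstream of an internal transcript start, and that at cry lay just upstream of its start. The 101 bp of Release 6 reference sequence centred on each of these 5 summits are shown because these genes had the highest signals. They are given 5′ to 3′ on the plus strand, and capitals mark every run of at least 8 A or T bases, a feature that was added after the data were seen.

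sgg, chrX:2646409-2646509: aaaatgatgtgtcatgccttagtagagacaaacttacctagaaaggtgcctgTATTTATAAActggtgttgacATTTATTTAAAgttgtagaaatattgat

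vri, chr2L:5293318-5293418: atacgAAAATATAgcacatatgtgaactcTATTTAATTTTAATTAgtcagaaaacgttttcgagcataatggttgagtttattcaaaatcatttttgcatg

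Pdp1, chr3L:7863875-7863975: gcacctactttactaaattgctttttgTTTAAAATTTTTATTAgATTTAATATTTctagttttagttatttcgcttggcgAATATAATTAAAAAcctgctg

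cry, chr3R:19211881-19211981: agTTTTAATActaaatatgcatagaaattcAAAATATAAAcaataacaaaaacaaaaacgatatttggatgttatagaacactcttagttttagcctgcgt

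dco, chr3R:31059131-31059231: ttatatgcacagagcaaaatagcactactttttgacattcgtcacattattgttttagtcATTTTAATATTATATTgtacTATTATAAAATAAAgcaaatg

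Each of the 5 windows held at least 2 such runs, and the longest reached 16 bases at vri, Pdp1 and dco, 11 at sgg and 10 at cry. The GC content of the windows was 30.7% at sgg, 26.7% at vri, 24.8% at Pdp1, 24.8% at cry and 23.8% at dco. At the highest peaks of the other genes, not shown, such runs numbered 0 at per, 1 at tim, 1 at cyc and 3 at cwo. GC there was 36.6% at per, 32.7% at tim, 40.6% at cyc and 28.7% at cwo. None of the 5 windows contained CACGTG.

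A promoter peak was defined as a summit within 500 bp of any annotated transcript start of the gene. By that definition 8 of the 10 clock genes had a promoter peak in the conservative list, where 21.3% of all protein-coding genes did. The count was 7 of 10 in replicate 1, where 15.6% of all genes had a promoter peak, and 8 of 10 in replicate 2, where 20.2% did. A peak anywhere in the gene window was found for 9 clock genes in the conservative list against 33.1% of all genes, for 8 in replicate 1 against 26.5%, and for 9 in replicate 2 against 31.1%. These counts are descriptions without a test, because the genes were chosen with the lists known. Clock genes with many starts or great length also have more chances of a peak. Among genes with 1 start, 14.9% (Wilson 95% interval 14.2 to 15.6) had a promoter peak, and so did 3 of the 4 clock genes of that class, per, cyc and cry but not cwo. Among genes with 2 to 3 starts the share was 35.7% (interval 34.1 to 37.4), and tim, vri and dco had a promoter peak while Clk did not. Pdp1 with 4 starts and sgg with 11 belonged to classes in which 64.9% and 70.2% of genes had a promoter peak.

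**Figure D1:**
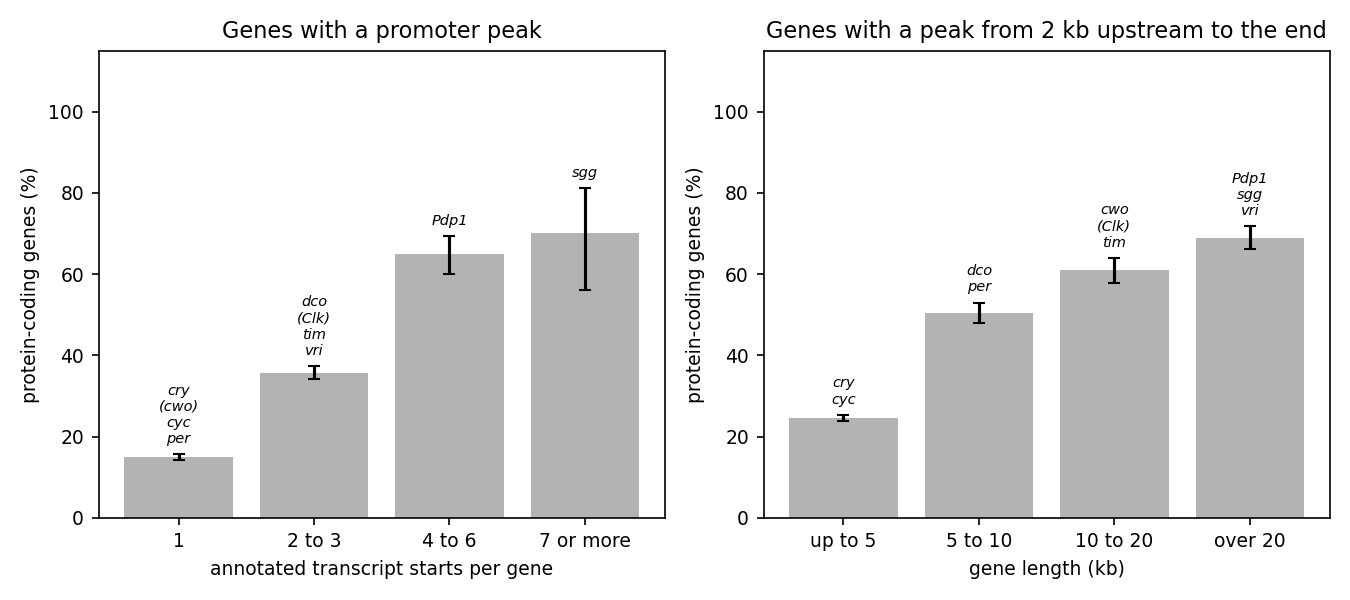
Share of protein-coding genes (bars, percent, with Wilson 95% intervals) that had a promoter peak, by number of transcript starts (left), or a peak in the gene window, by gene length in kb (right). The names above a bar are the clock genes of that class, in parentheses where the gene had no such peak, and the promoter share runs from 14.9% of genes with 1 start to 70.2% of genes with 7 or more.

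Positions below are in bp from the gene's nearest annotated transcript start, with negative values upstream, and coordinates are 1-based on dm6. Signal is the authors' value for a peak on a scale that is not stated, so it is used to rank peaks within a list and not to compare lists. Rank 1 is the highest signal. The reproducibility of a peak is the authors' irreproducible discovery rate (IDR), the expected share of irreproducible peaks, and the thresholded lists hold peaks with an IDR of 0.01 or less, which is a -log10 IDR of 2 or more.

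Of the activator genes, Clk had no peak and cyc had 1 near the median signal. Clk (chr3L:7763233-7775603, minus strand, 2 starts), which encodes the basic helix-loop-helix activator of the loop, had no peak in the conservative list, the less strict list or either replicate list. Even before the threshold no ranked peak fell in its window in replicate 1 or in both replicates together. Replicate 2 ranked 4 peaks there, the best at 1701 with a signal of 17.6 and a -log10 IDR of 0.76. Clk was the only clock gene without a thresholded peak in any of the 4 lists. In the length class of Clk, genes of 10 to 20 kb, 60.9% had a peak in the window.

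cyc (chr3L:19813770-19815938, minus strand, 1 start), which encodes the partner of CLK, had 1 peak at 411 in its intron, with a signal of 118 and rank 4905 of 9295. It passed the threshold in replicate 2 with a signal of 61.7, rank 5276 of 8219 and a -log10 IDR of 2.91. In replicate 1 the overlapping ranked peak had a signal of 49.3 and a -log10 IDR of 1.52, so it did not pass. The cyc call therefore rests on replicate 2 and on both replicates together.

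The genes of the negative limb, per and tim, had peaks near their starts with signals below the median of all conservative peaks, 123. per (chrX:2685580-2692780, plus strand, 1 start), whose product inhibits CLK and CYC, had 1 intergenic peak at -228 with a signal of 120 and rank 4782. It passed in both replicates, at -228 with a signal of 63.6 and rank 4200 in replicate 1 and at -283 with a signal of 57.0 and rank 5756 in replicate 2. The per peak thus stood near the middle of the conservative list (percentile 48.6) and lower in the replicates (37.1 and 30.0).

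tim (chr2L:3493986-3508119, minus strand, 3 starts), whose product is the partner of PER and is lost in light, had 2 peaks, both in introns. The higher one lay at 214, downstream of the start used by 6 annotated transcripts, with a signal of 94.9 and rank 6207. It passed in replicate 1 at 211 with a signal of 42.6 and in replicate 2 at 394 with a signal of 53.3, so the replicate 2 summit was 180 bp away. The other tim peak lay at -64 with a signal of 72.1, and it passed in neither replicate, with -log10 IDR values of 1.97 and 1.36. The less strict list held the tim peak at -64 and another at 240 with a signal of 24.1, but not the peak at 214. The tim peaks were the lowest of the 9 clock genes by highest signal.

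The genes of the second loop ranged from 1 conservative peak at cwo to 9 at vri and 20 at Pdp1. vri (chr2L:5288944-5311223, plus strand, 3 starts), which encodes the repressor of Clk, had 9 peaks, and 167 protein-coding genes had as many or more. Its highest peak lay in an intron at 4424 with a signal of 434 and rank 725, and it ranked 1015 in replicate 1 with a signal of 172 and 551 in replicate 2 with a signal of 267. The vri peak beside it, at 3837, had a signal of 196 and also passed in both replicates. The promoter peak of vri lay at -226, before an internal start, with a signal of 187, and it passed in replicate 1 at -264 with a signal of 120 and in replicate 2 at -249 with a signal of 65.9. Of the 9 vri peaks, 5 passed in both replicates and 2 in neither. Replicate 2 also had a vri promoter peak at 38 with a signal of 44.5 that the conservative list does not hold. The less strict list held an overlapping vri peak at 54 with a signal of 73.5. Starts of noncoding genes lay within 500 bp of the vri peaks at -1214 (lncRNA:CR44742) and -2165 (lncRNA:CR45730).

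Pdp1 (chr3L:7811458-7867369, minus strand, 4 starts), which encodes a basic leucine zipper activator of Clk, held 20 of the 48 peaks. There were 22 protein-coding genes with as many peaks or more. Pdp1 is 55.9 kb long, and genes over 20 kb had a median of 2 peaks. Its highest peak lay in an intron at 3444 with a signal of 350 and rank 1035, and it ranked 972 in replicate 1 with a signal of 177 and 1073 in replicate 2 with a signal of 183. The next highest, at 4467, had a signal of 270 and passed in both replicates with signals of 146 and 108. Another, at -473 before the start used by 7 transcripts, had a signal of 215 and passed in replicate 1 with a signal of 138. In replicate 2 its signal was 75.4 and its -log10 IDR 1.65, so the strongest Pdp1 promoter peak was called in replicate 1 and not in replicate 2. Of the 20 Pdp1 peaks, 9 passed in both replicates and 7 in neither. The lowest had a signal of 3.48, and the median was 93.6. The Pdp1 peak at -1732 lay within 500 bp of a start of the neighbouring gene CG32365.

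cwo (chr3R:10388258-10400752, plus strand, 1 start), which encodes a repressor that binds E-boxes, had 1 peak in the conservative list. It lay in an intron at 5659 with a signal of 104 and rank 5627, and it passed in both replicates with signals of 54.6 and 49.4. No thresholded list had a peak within 500 bp of the cwo start. The ranked list of both replicates, however, held 2 further cwo peaks past the threshold that the conservative list lacks. The higher one lay at -1128, at chr3R:10386938-10387321, with a signal of 191 and a -log10 IDR of 3.95, and a start of lncRNA:CR44938 lay within 500 bp of it. The other lay at 55, at chr3R:10388121-10388504, with a signal of 140 and a -log10 IDR of 3.19. In replicate 1 the upstream peak had a signal of 68.5 and a -log10 IDR of 3.29, and the best peak at the cwo start had 46.4 and 1.69, below the threshold. In replicate 2 both passed, with signals of 121 and 98.0 and -log10 IDR values of 4.19 and 3.57, and neither replicate's thresholded list holds them. In all, 175 of the 9470 ranked peaks past the threshold (1.85%) are absent from the conservative list, and 112 of these are on 3R. Why these peaks are absent was not tested, and with them cwo had 3 peaks and 9 clock genes had a promoter peak.

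The light input gene cry (chr3R:19212154-19215442, plus strand, 1 start), which encodes the blue light receptor of the clock, had 1 peak at -223 with a signal of 301 and rank 1335. It passed in both replicates, at -223 with a signal of 169 and rank 1052 in replicate 1 and at -224 with a signal of 129 and rank 1824 in replicate 2. The 3 summits of cry thus fell within a few bases of each other. A start of lncRNA:CR46393 also lay within 500 bp of the summit, so the peak cannot be assigned to cry alone.

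Of the kinase genes, dco had 5 peaks and sgg 8. dco (chr3R:31054085-31061210, minus strand, 2 starts), which encodes the casein kinase that phosphorylates PER, had 5 peaks, all 5 of which passed in both replicates. Its highest lay in an intron at 1592 with a signal of 235 and rank 1920, with signals of 134 in replicate 1 and 98.8 in replicate 2. The highest dco promoter peak lay in the 5′ untranslated region at 318 with a signal of 204, and a distal peak at -1324 had a signal of 189. The other dco promoter peak, at 111, had a signal of 22.1 and overlaps its neighbour, so both are matched by 1 peak in each replicate.

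sgg (chrX:2633952-2679553, plus strand, 11 starts), which encodes the fly glycogen synthase kinase that phosphorylates TIM, had 8 peaks, and its highest was the highest of all 48. That peak lay at -178 from an internal start, at chrX:2646283-2646624, with a signal of 831 and rank 170 of 9295. It ranked 221 of 6678 in replicate 1 with a signal of 356 and 176 of 8219 in replicate 2 with a signal of 442. Downstream of it lay sgg peaks at 900 with a signal of 359 and at 1504 with a signal of 248, both passing in both replicates. The other 5 sgg peaks had signals from 82.6 to 139, and 1 of them, at 774, lay in coding sequence. At the most upstream start of sgg, used by 6 transcripts, no conservative peak was found. The less strict list held a peak at 353 from the next start, with a signal of 76.4.

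**Figure D2:**
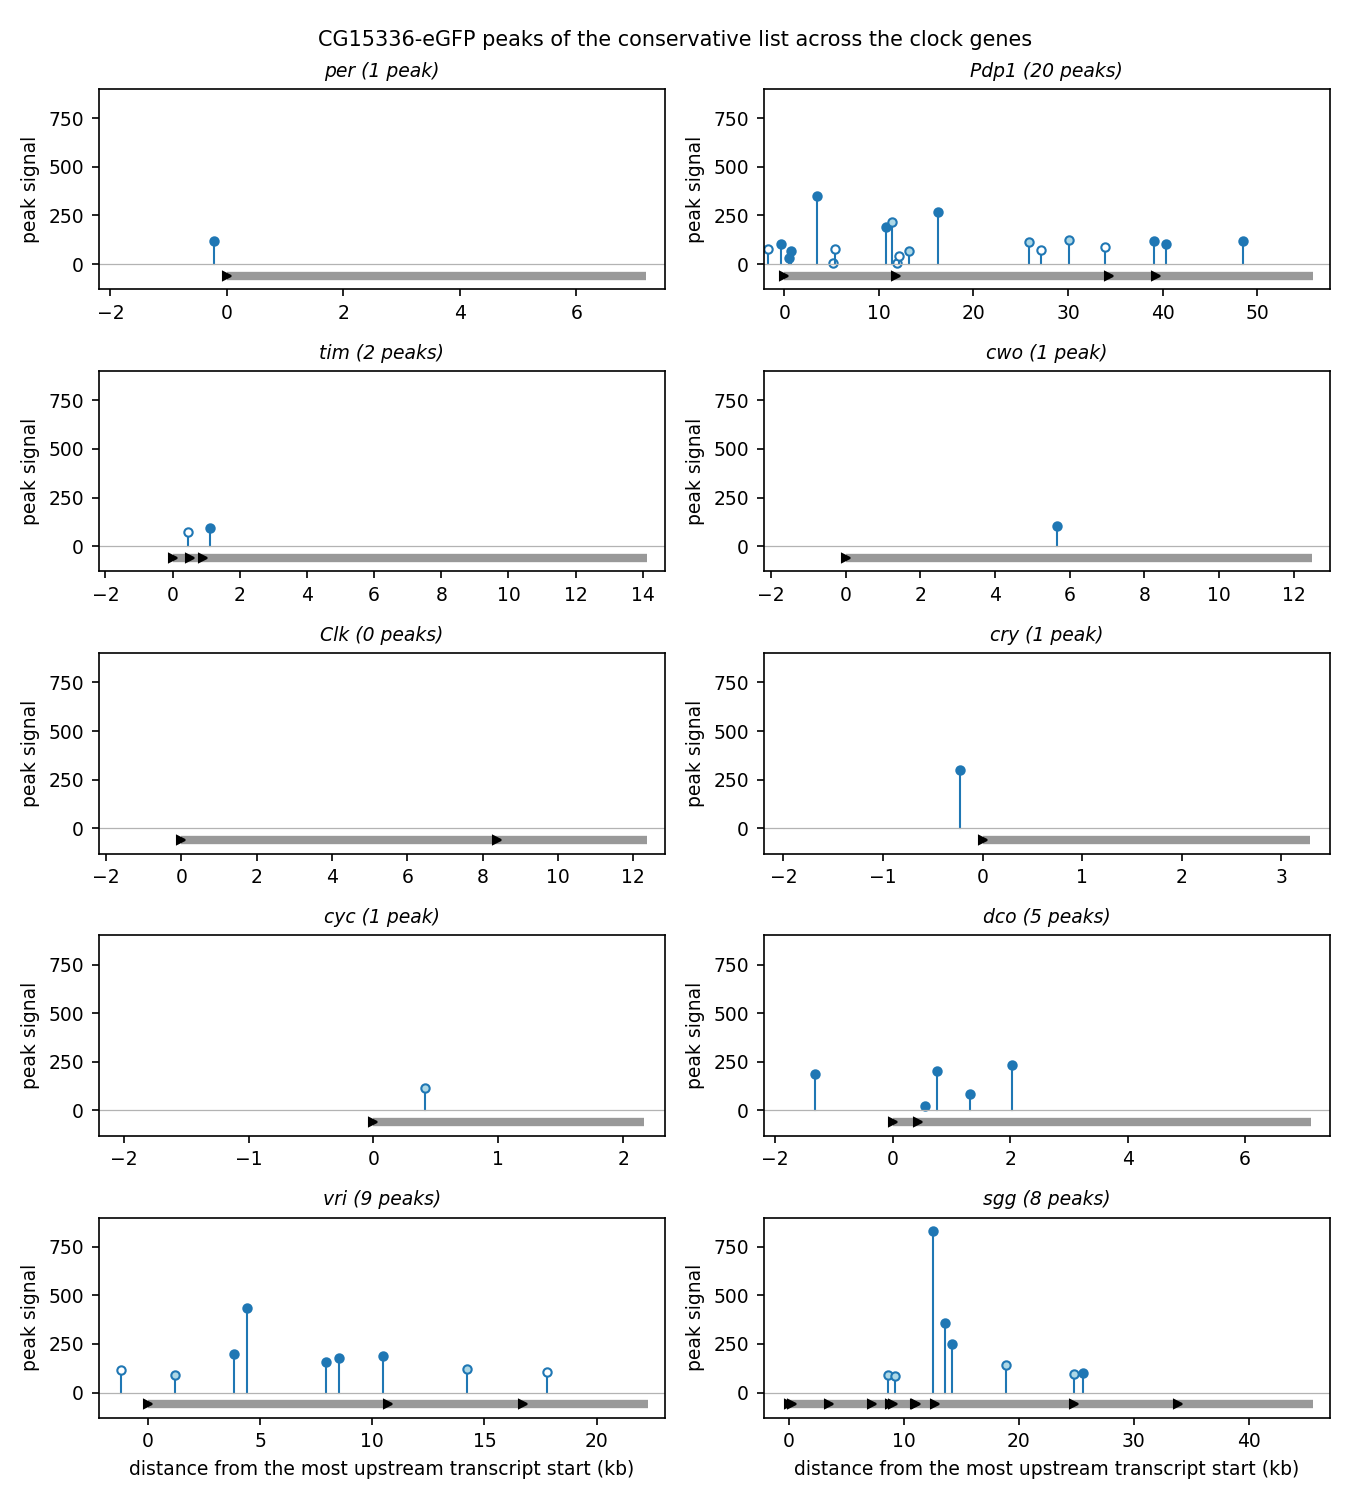
Peak signal of the authors (vertical axis, same scale in each panel) against distance in kb from the most upstream transcript start, for the 48 conservative peaks on the 10 clock genes. Grey bars are the genes and arrowheads their transcript starts, drawn in the direction of transcription, and filled, pale and open circles are peaks that passed in both replicates, in 1 and in neither. The sgg peak of 831 stands above all others, and Clk has no peak.

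Ranked by the highest promoter signal among the 2980 protein-coding genes that have a promoter peak, sgg came at 129, cry at 579, Pdp1 at 893, dco at 946, vri at 1049, per at 1732, cyc at 1757 and tim at 2150. Pdp1, vri, sgg and dco together held 42 of the 48 peaks (87.5%). The gene windows cover 203 kb and held 2.37 peaks per 10 kb, where the windows of all protein-coding genes held 0.831. The 48 peaks had a median signal of 114 against 123 for all conservative peaks, and 9 of them (18.8%) were in the top 25% of the list by signal. Promoter peaks of the clock genes (19 peaks) had a median signal of 96.0 and their other peaks 119. These medians count each of the 8 peaks that overlap a neighbouring peak on its own. Among the promoter peaks they include Pdp1 peaks with signals of 30.1, 4.37 and 40.1 and a dco peak with 22.1. Among the other peaks they include a Pdp1 peak with 3.48. Of the 19 promoter summits, 11 lay upstream of the start and 8 downstream.

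Of the 48 peaks, 27 (56.2%, Wilson 95% interval 42.3 to 69.3) overlapped a thresholded peak of each replicate, where 58.8% of all conservative peaks did. A further 5 (10.4%) passed in replicate 1 only, 6 (12.5%) in replicate 2 only and 10 (20.8%) in neither, where the shares of all conservative peaks were 8.50%, 17.6% and 15.1%. The peaks shared by both replicates had a median signal of 178 and the remaining ones 90.1. Across the 25 distinct pairs of replicate peaks behind the shared ones, the signals had a Spearman rho of 0.867. These pairs come from the same 2 libraries and are not independent samples. The conservative summits lay a median of 18.0 bp from their replicate 1 partners and 28.0 bp from their replicate 2 partners. Near the threshold, the 3 lowest peaks inside it were Pdp1 peaks with -log10 IDR values of 2.03 to 2.04, and just below it in the ranked list lay Pdp1 peaks with 1.997 and 1.981 and a cwo peak with 1.980.

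**Figure D3:**
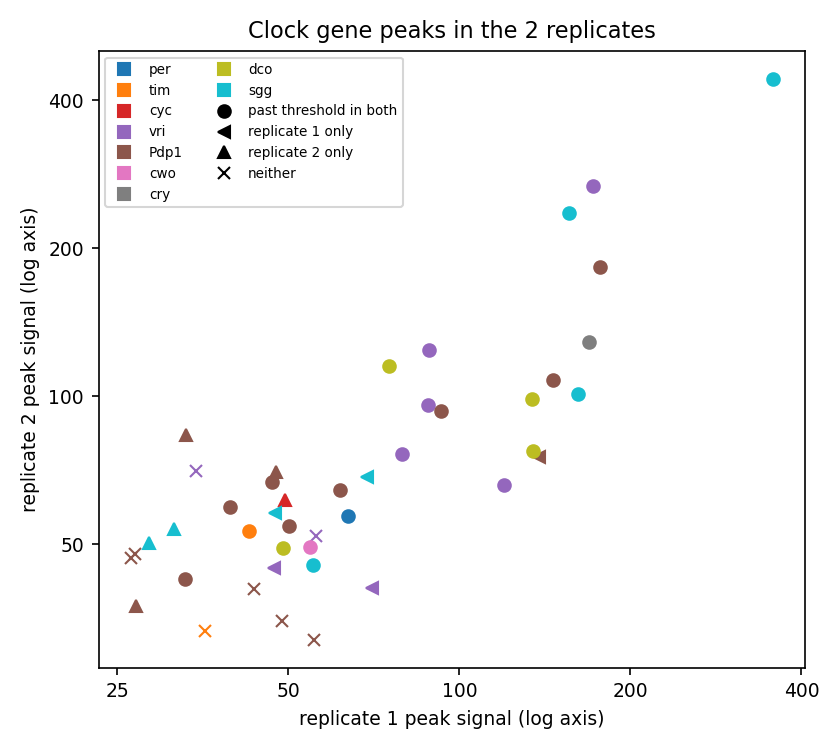
Signal of each clock gene peak in replicate 1 (horizontal, log axis) and replicate 2 (vertical, log axis), coloured by gene, with the marker showing in which replicate the peak passed the threshold; peaks below it are from the ranked lists, peaks with the same partners are drawn once and the Pdp1 peak at 80, without a partner in replicate 2, is left out. The sgg peak of 356 and 442 is highest in both replicates, and the peaks that passed in neither replicate had signals of at most 55.9 in replicate 1 and 70.4 in replicate 2.

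The summits of the clock gene peaks were poorer in GC than the sequence beside them. Within 50 bp of the summit GC was 34.3% ± 9.46 (SD, n = 48 peaks), and in windows 300 bp to each side it was 43.2%. The difference was -8.93 percentage points ± 14.1 (SD), so it was smaller than its spread between peaks, and 35 of the 48 summits (72.9%) were below their flanks. Over all conservative peaks the same values were 33.9%, 44.3% and 77.0%. The clock gene peaks in the top 25% by signal had a mean summit GC of 28.7%, and the others 35.6%, where the same split of all conservative peaks gave 29.2% and 35.4%. A run of at least 8 A or T bases lay within 50 bp of 36 of the 48 summits, where 75.6% of all conservative summits had one. The lowest GC, 17.8%, was found at the tim summit at -64 and at the Pdp1 summit at 5368, and the highest, 52.5%, at a vri summit at 1091.

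**Figure D4:**
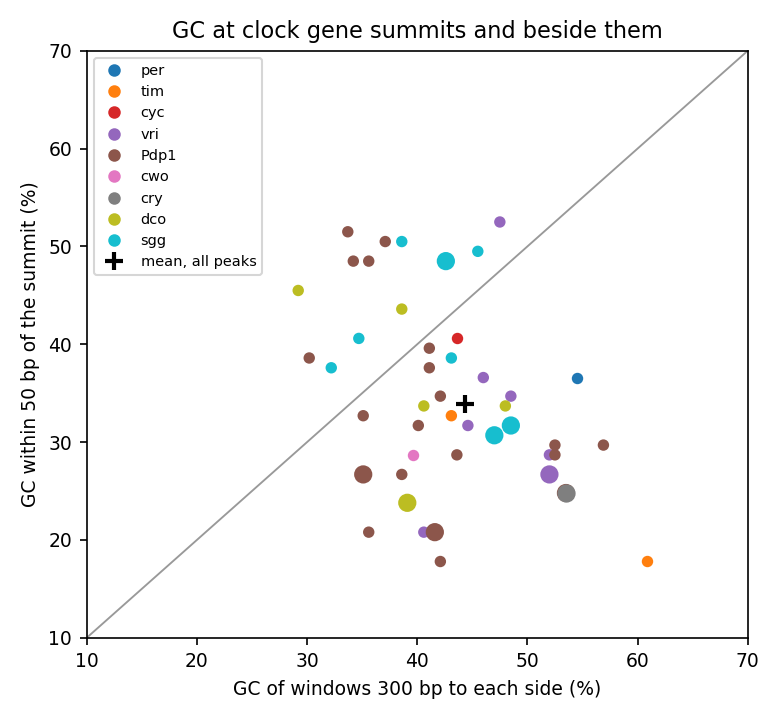
GC content within 50 bp of each clock gene summit (vertical, percent) against that of windows 300 bp to each side (horizontal, percent), coloured by gene. Large points are peaks in the top 25% by signal, the line marks equal values and the cross the mean of all conservative peaks, and 35 of the 48 peaks lie below the line, with the highest peaks of cry and Pdp1 at the same place.

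Few of the summits had a DNA element of the clock within 50 bp, and few of all conservative summits had one. All motifs were searched on both strands as exact letters, so a match is not a known site, and an absent match says only that these letters are not in the window. CACGTG, the E-box, lay within 50 bp of 0 of the 48 summits, where 0.581% of all conservative summits had it. TTATGTAA, a site of the VRI and PDP1 family, lay near 1 summit, against 1.15%, and its palindrome TTACGTAA near 0, against 0.183%. GAGAG, the site of GAGA factor, lay near 10 summits (20.8%), against 12.5%. With windows of 150 bp to each side, CACGTG was present at 3 clock gene summits (6.25%), all of Pdp1, and at 2.95% of all summits. The Pdp1 summits at 80 and 280 are counted for the same copy of CACGTG. Their peaks overlap, and neither passed in either replicate. At that width TTATGTAA was present at 3 clock gene summits (6.25%), of Pdp1, tim and vri, against 2.51% of all summits, and GAGAG at 20 (41.7%) against 38.3%. TTACGTAA was present at 0 against 0.355%.

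The 10 gene windows held 50 copies of CACGTG, at least 1 in each gene, with 13 in Pdp1, 10 in cwo, 8 in per and 7 in sgg. Of these, 4 (8.0%) lay inside a conservative peak, and conservative peaks cover 7.65% of the bases of the windows. Those 4 copies were 3 in Pdp1 peaks and 1 in a vri peak, 182 bp from its summit. The copy nearest to any summit lay 94 bp away, in Pdp1. In tim the nearest copy lay 248 bp from a conservative summit, and in cwo 480 bp. The cwo peaks that the conservative list lacks were not used for these distances. Another cwo copy lay at -932, beside the absent peak at -1128. The per peak is shown against its nearest upstream E-box because per is a classical target of CLK and CYC. The sequence runs from that E-box, at -528 and in capitals, to just before the summit of the per peak, 300 bp from it.

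per, chrX:2685050-2685349, plus strand: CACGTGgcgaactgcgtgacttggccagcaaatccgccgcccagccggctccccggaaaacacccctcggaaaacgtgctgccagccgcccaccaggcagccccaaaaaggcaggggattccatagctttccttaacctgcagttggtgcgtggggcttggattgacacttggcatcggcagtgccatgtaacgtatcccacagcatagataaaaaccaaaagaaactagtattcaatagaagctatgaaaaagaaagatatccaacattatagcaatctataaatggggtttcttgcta

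The clock gene summit with a VRI and PDP1 family site within 50 bp was 1 of the 7 promoter peaks of Pdp1 itself. It lay at -325, with a signal of 103 and rank 5661 of 9295. It passed in replicate 1 with a signal of 39.4 and rank 6233 of 6678, and in replicate 2 with a signal of 59.7 and rank 5466 of 8219. The peak also contains an E-box 174 bp from the summit. The sequence from the start of the peak to 50 bp past the summit is given with both elements in capitals, CACGTG first and then TTATGTAA, which lies 42 bp from the summit.

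Pdp1, chr3L:7867502-7867744, plus strand: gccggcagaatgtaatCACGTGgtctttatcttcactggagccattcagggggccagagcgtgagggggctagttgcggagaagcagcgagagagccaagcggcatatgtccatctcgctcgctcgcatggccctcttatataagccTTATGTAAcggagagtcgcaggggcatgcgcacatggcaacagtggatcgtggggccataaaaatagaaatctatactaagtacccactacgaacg

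**Figure D5:**
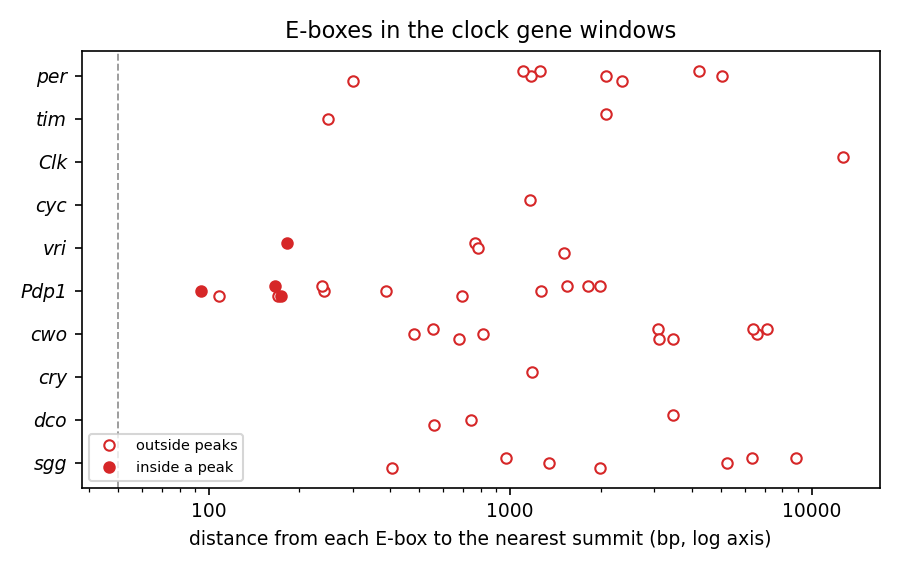
Distance in bp (log axis) from each of the 50 CACGTG copies in the clock gene windows to the nearest conservative summit on the same chromosome, by gene. Filled points lie inside a peak, open points outside, and the dashed line marks 50 bp, with no copy to its left.

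A list of 37 other genes tied to the clock was written from knowledge of the field, and all 37 were found in the annotation. Of these, 10 had a promoter peak in the conservative list, 6 in replicate 1 and 12 in replicate 2, beside the shares of 21.3%, 15.6% and 20.2% of all genes given above. Those with a promoter peak in all 3 lists were kay, CrebB, Eip75B, lark and norpA. kay and CrebB have 4 starts, Eip75B 7, norpA 3 and lark 2. Among all genes the conservative share ran from 14.9% with 1 start to 70.2% with 7 or more. The 37 genes were not split by number of starts. Eip75B, an ecdysone-induced nuclear receptor that also acts in clock neurons, had the highest promoter signal of the list at 565, with 305 in replicate 1 and 253 in replicate 2, and 27 peaks in its window. Eip75B is 114 kb long, and genes over 20 kb had a median of 2 peaks. CrebB, a cAMP response element binding protein, had a signal of 254, with 75.9 and 178 in the replicates. norpA, the phospholipase C of phototransduction, had 168, with 94.2 and 75.0. ITP, which encodes a neuropeptide of clock neurons, had 192 with 130 in replicate 2, and no promoter peak in replicate 1. kay, the fly Fos protein, had 141 and the RNA-binding protein gene lark 126, and a start of eco lay within 500 bp of the lark summit.

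By role, 4 of the 7 other transcription factors and cofactors had a conservative promoter peak, 2 of 3 genes of translation and RNA binding, 2 of 3 of light input, 1 of 5 of protein turnover and 1 of 9 neuropeptide, receptor and excitability genes. The share of all genes was 21.3%, and these classes were not split by number of starts. In the same order the counts were 4, 1, 1, 0 and 0 in replicate 1 and 4, 2, 2, 2 and 1 in replicate 2. Differences between these small classes were not tested. None of the 4 rhythmic output genes had a peak in the window in the conservative or either replicate list, where 33.1%, 26.5% and 31.1% of all genes had one. None of the 6 other kinase and phosphatase genes acting on PER and TIM had a conservative promoter peak, beside 21.3% of all genes. In replicate 1 none had one and in replicate 2 it was 1 of 6. In the conservative list 4 of them had a peak in the window, beside 33.1% of all genes. Among those 4, nmo, which encodes a kinase acting on PER, had 9 peaks over its 75.1 kb.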

How the data were processed

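Both libraries are anti-GFP ChIP-seq of 1 group, CG15336-eGFP prepupae, with 2 biological replicates per the labels. The authors deposited narrowPeak lists on dm6, per the labels, called on each replicate and on both together, both ranked and cut at an IDR threshold. Which aligner and caller were used is not stated in the labels or file headers. The score the authors deposited behaves in its values as a scaled IDR and is at least 830 in the thresholded lists. The deposited signal is on an unstated scale. The -log10 of the global IDR was taken from the deposited ranked lists and is 2.00 or more for every thresholded peak. In the pooled ranked lists 16 further columns of values were not mapped to samples and were not used.

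Genes came from Ensembl release 115 and sequence from Release 6 of the RefSeq genome, whose arm lengths match dm6. Peaks were assigned by summit, from 2000 bp upstream of a gene to its end, and a peak counted as shared when it overlapped a replicate peak by 1 bp or more. Motifs were searched within 50 bp of summits. Wilson intervals treat peaks or genes as independent and cover counting error only. No test was run, because the members and lists were chosen with earlier results of these data known. Each member is named. Of the other clock genes, those with a promoter peak in all 3 lists and the 4 with the highest signal are named, and nmo and the noncoding neighbours away from promoter peaks were named after their values were seen. Alternatives were other lists, an IDR of 0.001, each replicate alone, other windows and other overlap rules.

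Scripts ran in Python 3.11.15, using pandas 2.3.3 and numpy 2.4.6 for tables, scipy 1.17.1 for rank correlation and matplotlib 3.10.9 for plots, and were tested on simulated data with planted peaks and motifs.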

Additional observations from a re-analysis of the deposited data

How the results depend on the processing

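The count of 48 peaks fell to 24 at an IDR of 0.001 or less, and leaving out a replicate gave 31 to 35. Clock genes with a promoter peak numbered 4 with a window of 200 bp, and 7 to 8 with a replicate left out. Clock genes with any peak numbered 8 to 9 with a replicate left out, 7 at an IDR of 0.001, where tim and cwo had 0 peaks, and 7 with 0 bp upstream, where per and cry had 0. Peaks shared by both replicates numbered 17 with reciprocal overlap of at least 50%, 24 by summits within 100 bp and 47 with the ranked replicate lists. CACGTG lay at 3 summits with 150 bp to each side and at 0 in each replicate alone. Other clock-linked genes with a promoter peak numbered 6 to 12 with a replicate left out, the lower value without replicate 2. Adding the ranked peaks absent from the conservative list, an alternative chosen after the data were seen, gave 50 peaks and 9 clock genes with a promoter peak, and counting overlapping peaks of a gene as 1 gave 44. The share of all genes was not counted at 200 bp, at an IDR of 0.001, with 0 bp upstream or with the added ranked peaks. The counts of clock genes under those alternatives therefore have no share beside them. Of 90 counts for single genes under an alternative, 77 were unchanged or moved by at most 1.5 times. The other 13 moved by more, 2 upwards and 11 downwards. No paired analysis was possible because the series holds 1 group. Unknown depth limits how an absent peak, as at Clk, can be read.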
